A study of Mus musculus with 11 samples.

Results

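The circadian clock was examined through the mRNA of 10 genes in 11 RNA-seq samples of mouse subcutaneous preadipocytes and adipocytes. The 10 genes were Clock, Arntl, Per1, Per2, Per3, Cry1, Cry2, Nr1d1, Nr1d2 and Dbp. The genes were chosen by symbol, and for each the sense-strand transcript that the authors marked as representative was used, so that 10 of 29955 gene symbols entered. All 10 were above the minimum FPKM of 0.1 that was required for a test. FPKM is the number of sequenced fragments scaled to the length of the transcript and to the depth of the library, so that levels of different genes can be set side by side.

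The cells, im-scWAT, are mouse preadipocytes from the inguinal subcutaneous fat pad that were immortalized with SV40 large T antigen, and all 11 samples share this origin. In a time course, 2 samples were taken as preadipocytes at day 0, and 1 sample each at day 4 and day 8 of differentiation, with or without 0.5 μM rosiglitazone (ROS), a ligand of the adipogenic nuclear receptor PPARγ. In a further experiment, cells carried an shRNA against endogenous mouse Jmjd1a under a U6 promoter and a retrovirus with human JMJD1A driven by its long terminal repeat, and were collected at day 8 of differentiation with ROS. This experiment comprised 2 samples of wild-type JMJD1A (WT A and WT B), 1 of S265A, whose phosphorylated serine is replaced by alanine, 1 of S265D, which mimics the phosphorylated form, and 1 of S265D-H1120Y, which in addition lacks demethylase activity. The transduced cells were drug-selected pools, and the time course cells carried neither vector. Differentiation of the cultures collected at day 4 and day 8 was started with indomethacin, dexamethasone, IBMX, insulin and T3 for 2 days and continued with insulin and T3. Labels and methods differ on whether ROS was still present on the last day. The 2 samples of day 0 were labelled as ROS plus and ROS minus, but ROS is added at day 0, and they were used as a pair. No source says that the samples of either pair came from separate cultures, so the p-values measure only the spread between these samples. The hour of collection is not given in the sources used here, so the phase of the clock and the group cannot be told apart in any comparison below.

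The circadian clock is a transcriptional feedback loop that runs in most mammalian cells, fat cells included. CLOCK and BMAL1, the product of Arntl, bind E-box elements as a heterodimer and activate the Per and Cry genes, whose proteins return to the nucleus and repress that heterodimer. The nuclear receptors REV-ERBα and REV-ERBβ, encoded by Nr1d1 and Nr1d2, repress Arntl and form a further loop with the ROR activators, while DBP is an output factor that acts through D-box elements. In culture, glucocorticoids such as dexamethasone and agents that raise cAMP such as IBMX are known to act on Per genes and to reset the clock.

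Each sample had 3.10 to 5.29 Gb of mapped bases, and a transcript with 2 kb of exons and 100 bases mapped to it would have an FPKM of 0.00944 to 0.0161. Kdm3a (Jmjd1a), the gene targeted by the shRNA, had FPKM of 23.2 and 20.9 at day 0, 15.8 without and 15.1 with ROS at day 4, and 16.0 without and 21.1 with ROS at day 8. In transduced cells it had 20.4 in WT A and, in WT B, 17.9, with 13.0 in S265A, 23.0 in S265D and 28.5 in S265D-H1120Y. These values overlap with those of the time course, so a knockdown is not visible in the row, and no separate value was given for the human JMJD1A cDNA. Whether reads of that cDNA were counted in this row was not tested. The paper reports depletion of endogenous JMJD1A by the shRNA, from immunoblot and qPCR, and human JMJD1A at levels comparable to the native mouse protein. Summed FPKM of 8 adipocyte markers was 268 to 269 at day 0, 11239 to 36613 in the differentiated cells of the time course and 15742 to 29175 in transduced cells. The macrophage markers Ptprc and Adgre1 and the muscle markers Myog, Myod1 and Ckm were listed at 0 in all 11 samples, and the endothelial marker Cdh5 was at most 0.01003. Of the other markers of these cell types, Cd68 reached 21.7 in S265D-H1120Y and Acta1 19.3 in WT B, and the summed FPKM of the 4 endothelial markers was at most 4.00.

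Promoter windows of 250 bases before to 50 bases after a transcript start were available from RefSeq (GRCm38.p6) for 9 of the 10 genes, with none for Per2. The windows were searched on both strands for the E-box CACGTG, the D-box TTATGTAA or TTACGTAA, the cAMP response element TGACGTCA, and the core of a ROR element, TAGGTCA or TGGGTCA. The E-box was found in 2 of 9 genes, Per1 at position -166 from the start site and Cry1 at -60, against 8.09% of 27025 genes with a window. The D-box was found in 1 of 9, Per3, at -205 and -158, against 1.23% of genes. The ROR core was found in 1 of 9, Arntl, at position 31 after a start site, against 7.35%, and the cAMP response element in 0 of 9, against 2.03%. Upstream stretches of 250 bases are shown for the 3 genes with a match before the start site, Per1 at chr11:69098699-69098948 on the plus strand, Cry1 at chr10:85185055-85185304 on the minus strand and Per3 at chr4:151044666-151044915 on the minus strand, 5′ to 3′ and with the matched elements in capitals.
Per1: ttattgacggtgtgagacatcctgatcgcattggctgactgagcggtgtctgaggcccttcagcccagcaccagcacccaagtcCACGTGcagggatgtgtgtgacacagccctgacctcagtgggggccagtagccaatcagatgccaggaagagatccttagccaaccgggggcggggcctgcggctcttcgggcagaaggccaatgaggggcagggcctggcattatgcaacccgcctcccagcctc
Cry1: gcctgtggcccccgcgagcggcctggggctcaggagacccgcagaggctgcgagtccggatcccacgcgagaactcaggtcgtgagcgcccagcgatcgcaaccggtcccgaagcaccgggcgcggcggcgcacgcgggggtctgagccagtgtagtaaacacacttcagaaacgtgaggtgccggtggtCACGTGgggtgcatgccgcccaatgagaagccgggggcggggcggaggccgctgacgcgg
Per3: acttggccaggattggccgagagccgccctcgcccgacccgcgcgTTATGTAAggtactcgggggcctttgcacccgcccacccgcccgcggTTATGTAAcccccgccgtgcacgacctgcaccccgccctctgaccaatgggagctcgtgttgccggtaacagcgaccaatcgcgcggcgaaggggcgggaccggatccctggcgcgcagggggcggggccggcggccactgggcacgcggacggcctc
A match is a description of the letters, and binding was not measured.

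All 10 genes were detected in every sample at FPKM between 2.95 and 21.8. Averaged over the 11 samples, the mean FPKM went from 4.30 for Per2 to 15.3 for Per1, and these means stood at the 45.2 and 71.7 percentiles of all expressed genes. The highest sample was 3.94 times the lowest for Dbp, 3.16 times for Clock and 2.96 times for Per1. At the other end were Arntl with 1.73 times and Per2 with 1.79 times. The median range over the 11 samples on the log2 scale was 1.32 for the 10 genes, against 1.51 for all 17075 expressed genes and 1.28 for the 5674 genes with a mean FPKM from 4 to 20. Between the samples of day 0 the median absolute log2 difference was 0.137 for the 10 genes and 0.130 for all genes, and between WT A and WT B it was 0.465 and 0.485. The spread within the WT pair was thus larger than within the day 0 pair.

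**Figure D1:**
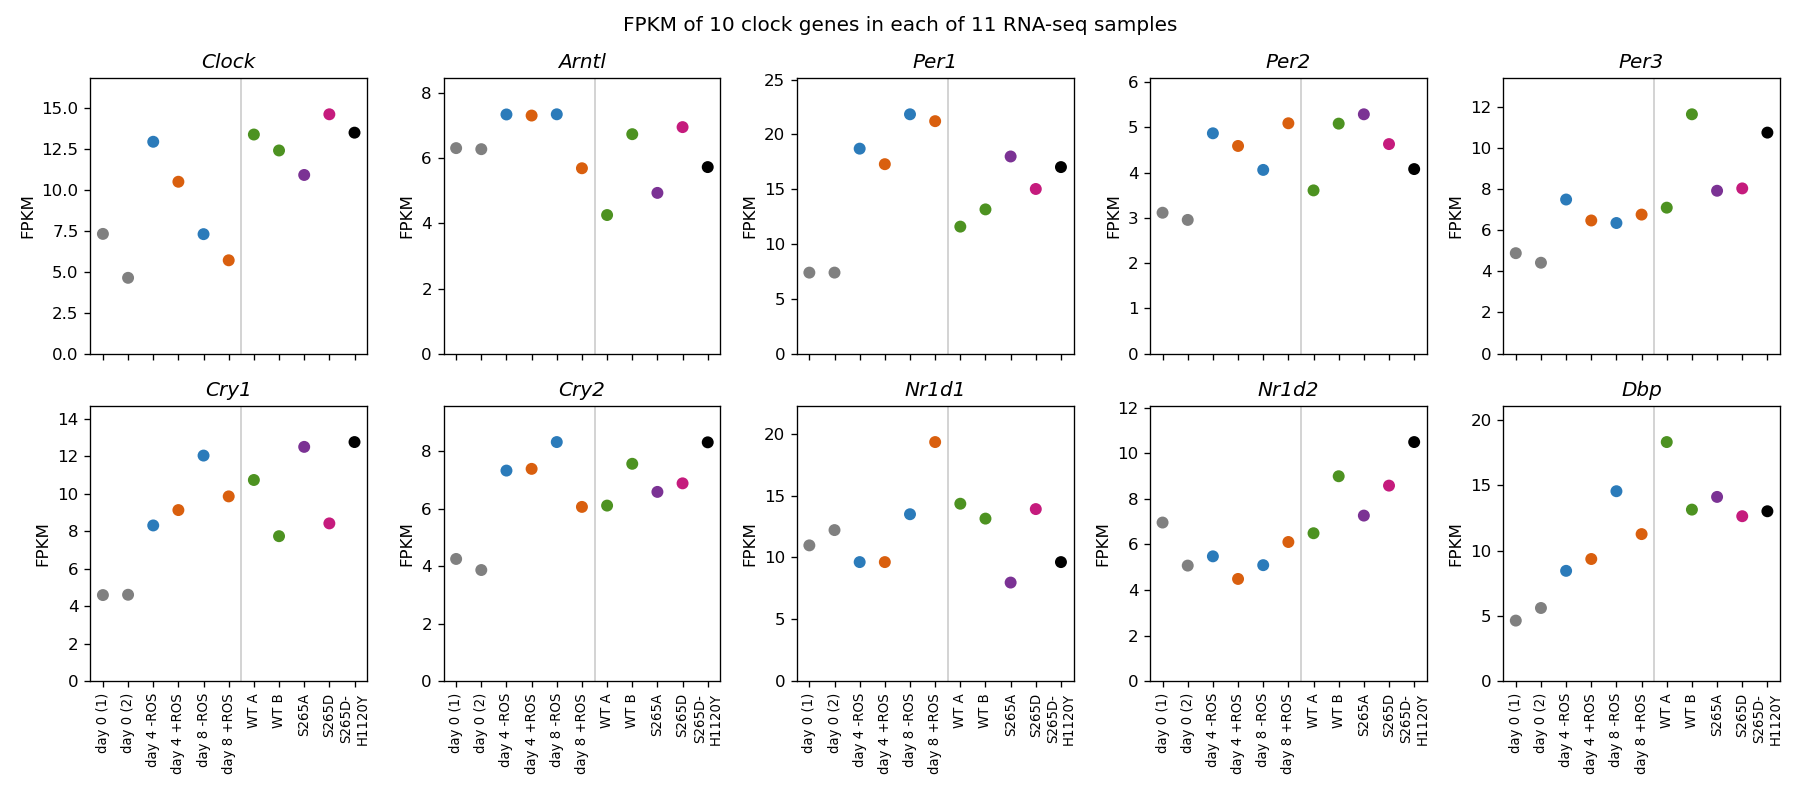
FPKM of each of the 10 clock genes (y axes, linear from 0) in each of the 11 samples (x axes, 1 point per sample, with the time course left and the transduced cells right of the grey line). Per1 was at 7.39 in both samples of day 0 and at 17.3 or higher in the 4 differentiated samples, while Arntl stayed between 4.26 and 7.36 in all samples.

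The comparison of day 4 with day 0 asks how the clock genes differ once differentiation has begun. In limma with Benjamini-Hochberg adjustment, 4 of 10 clock genes rose and 0 fell, namely Per1, Per2, Cry1 and Cry2, the 4 Per and Cry repressors other than Per3. Of all 16400 genes tested, 22% rose and 21.7% fell, so that 43.7% were called in either direction. The median log2 difference was 0.71 for the 10 genes and 0.01 for all genes. Past a 2-fold difference was 1 of 10 clock genes, Per1, against 28.1% of all genes. The fit used the mean of both day 4 samples, on the scale log2(FPKM + 0.1). The spread came from the day 0 pair with 1 residual degree of freedom, so that single samples were assumed to vary like that pair. Limma moderated each gene's spread toward that typical of all genes. The SE of 0.05 for Per1 and Cry1 mostly reflects this. Zbtb16, at 0 in both day 0 samples, had the same SE. A fit of all 11 samples called 1 of 10 clock genes, Per1, and 1454 of all 17075 genes. When day 0 sample 1 or day 0 sample 2 was left out of it, so that the spread came from the WT pair, 0 of 10 clock genes and 0 of all genes were called, and the log2 difference of Per1 was 1.27 in both cases (limma adjusted p = 0.44 and 0.45). Since these are bulk samples, fewer cells of a type and less RNA per cell cannot be told apart.

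Per1 (chr11:68913660-68923459, plus strand, mm9) encodes a repressor that is also rapidly induced by cAMP and glucocorticoid signals. It had an FPKM of 7.39 and 7.39 at day 0, 18.7 without and 17.3 with ROS at day 4, and 21.8 without and 21.2 with ROS at day 8. All 4 differentiated samples were above both samples of day 0. The log2 difference between day 4 and day 0 was 1.27 (SE 0.05, limma adjusted p = 0.0180).

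Per2 (chr1:93312559-93355905, minus strand, mm9), a repressor close to Per1 in function, was the gene with the lowest mean level of the 10. It had FPKM of 3.11 and 2.95 at day 0, 4.87 without and 4.59 with ROS at day 4, and 4.06 without and 5.09 with ROS at day 8. The groups did not overlap, and the difference at day 4 was 0.62 (SE 0.06, limma adjusted p = 0.0330). Per3 (chr4:150377764-150418731, minus strand, mm9), which is less essential for the rhythm than its paralogs, had 4.88 and 4.41 at day 0 and 6.35 to 7.49 in the 4 differentiated samples. It was higher in each of them, but its log2 difference of 0.57 missed the threshold (SE 0.09, limma adjusted p = 0.0513).

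Cry1 (chr10:84594445-84647799, minus strand, mm9) encodes the cryptochrome that represses CLOCK and BMAL1 most strongly. Its FPKM was 4.60 and 4.62 at day 0, 8.32 without and 9.14 with ROS at day 4, and 12.04 without and 9.87 with ROS at day 8. It was thus higher in every differentiated sample, with a log2 difference of 0.90 at day 4 (SE 0.05, limma adjusted p = 0.0208). Cry2 (chr2:92251417-92274226, minus strand, mm9), its paralog, had 4.25 and 3.86 at day 0, 7.32 without and 7.38 with ROS at day 4, and 8.31 without and 6.06 with ROS at day 8. Its difference at day 4 was 0.84 (SE 0.08, limma adjusted p = 0.0329), and no differentiated sample reached down to the day 0 values. The ratio of Cry1 to Cry2, both in FPKM, was 1.08 and 1.20 at day 0, 1.14 and 1.24 at day 4 and 1.45 and 1.63 at day 8.

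The activators behaved less uniformly. Clock (chr5:76641202-76733573, minus strand, mm9), the histone acetyltransferase partner of the heterodimer, had FPKM of 7.31 and 4.63 at day 0, 12.9 without and 10.5 with ROS at day 4, and 7.29 without and 5.70 with ROS at day 8. Both day 4 samples were the highest of the time course, but the day 0 pair was 0.65 apart on the log2 scale, the widest gap of the 10 genes, and the difference of 0.99 was not called (SE 0.33, limma adjusted p = 0.143). Arntl (chr7:120350979-120457636, plus strand, mm9), without which the rhythm is lost, had 6.32 and 6.29 at day 0, 7.35 without and 7.32 with ROS at day 4, and 7.36 without and 5.70 with ROS at day 8. Its values at day 4 were close together and above day 0, by 0.22 (SE 0.05, limma adjusted p = 0.0881). In the representative rows the Clock to Arntl ratio was 0.736 and 1.16 at day 0, 1.43 and 1.76 at day 4, and 0.991 and 1.00 at day 8.

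The REV-ERB genes were the only members with a negative difference at day 4, and neither was called. Nr1d1 (chr11:98629249-98636556, minus strand, mm9) had FPKM of 10.98 and 12.2 at day 0, 9.63 with and without ROS at day 4, and 13.5 without and 19.3 with ROS at day 8. Day 4 was below both samples of day 0, by 0.26 (SE 0.09, limma adjusted p = 0.151), and day 8 was above both. Nr1d2 (chr14:19036570-19071620, minus strand, mm9) had 6.96 and 5.07 at day 0, 5.48 without and 4.49 with ROS at day 4, and 5.09 without and 6.11 with ROS at day 8, so that the groups overlapped. Nr1d1 shares 263 of its 3124 exonic bases (8.42%) with exons of Thra, a thyroid hormone receptor gene on the opposite strand with FPKM of 28.2 to 71.3, and how reads of the shared stretch were assigned was not tested. Reads were kept apart by strand in the files, where 1.52 to 2.28% of mapped bases lay on antisense rows.

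Dbp (chr7:52960617-52965573, plus strand, mm9), a PAR bZIP factor that is transcribed under direct control of CLOCK and BMAL1, had FPKM of 4.65 and 5.62 at day 0, 8.46 without and 9.37 with ROS at day 4, and 14.6 without and 11.3 with ROS at day 8. Its 6 values did not overlap between day 0, day 4 and day 8. The difference between day 4 and day 0 was 0.79 and was not called (SE 0.14, limma adjusted p = 0.0641). Counted over the whole time course, 6 of 10 clock genes (Per1, Per2, Per3, Cry1, Cry2 and Dbp) were higher in all 4 differentiated samples than in both samples of day 0, against 31% of all genes, and 0 of 10 were lower in all 4, against 30.8%.

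Of the genes measured beside the clock genes at day 4, 5 preadipocyte markers gave 4 that fell and 1 that rose, Pdgfra, and 7 of 8 adipocyte markers rose. Of 8 known glucocorticoid targets, 6 rose and Sgk1 and Dusp1 fell. Their summed FPKM was 180 to 190 at day 0, 367 to 680 at days 4 and 8, and 162 to 207 in transduced cells. Members moved in opposite directions within this sum. Sgk1 had 70.6 and 77.8 at day 0 and 7.26 to 12.7 in transduced cells, while Klf9 had 6.49 and 5.45 and then 35.0 to 45.6. Of 10 immediate early genes, 3 rose and 3 fell, with summed FPKM of 85.5 to 88.7 at day 0 and 49.6 to 116 at days 4 and 8, and 28.9 to 67.9 in transduced cells. The part of differentiation, glucocorticoid and immediate early signals in the clock gene differences was not tested.

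**Figure D2:**
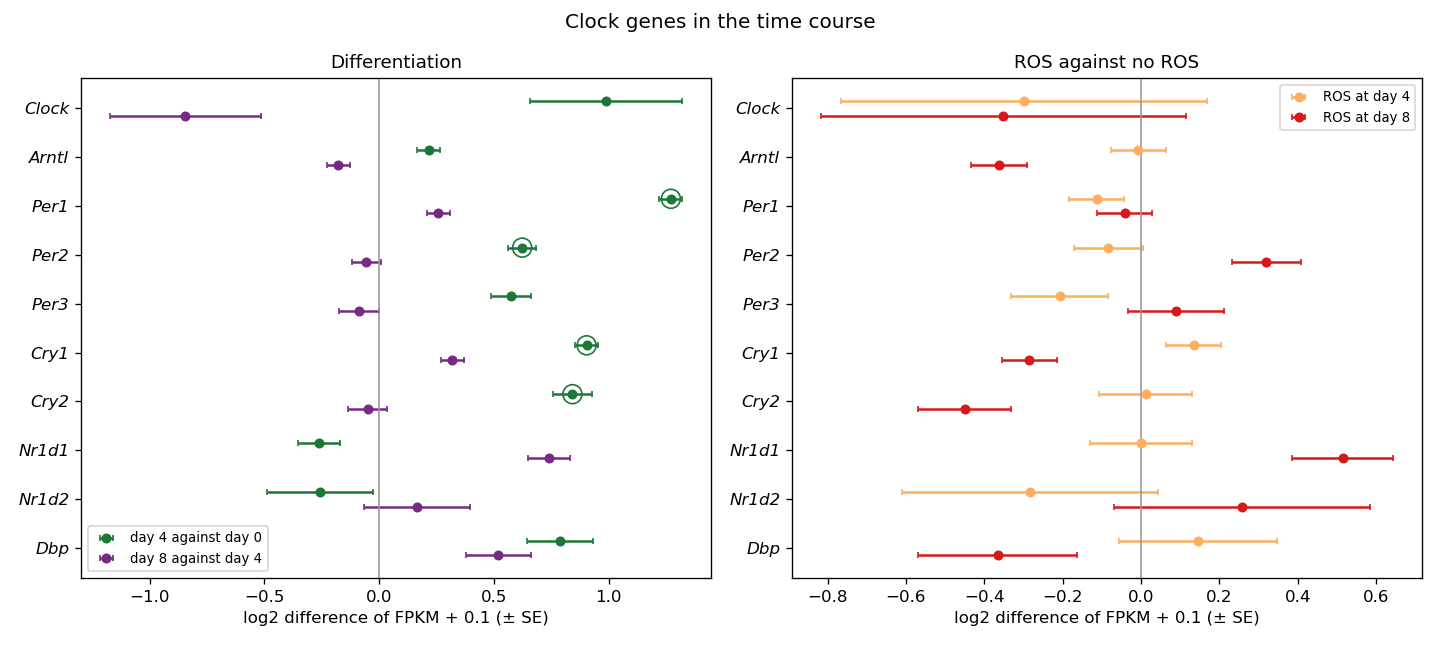
Differences of log2(FPKM + 0.1) for the 10 clock genes (points, with bars of ± 1 SE from limma) for differentiation (left: day 4 minus day 0 in green, day 8 minus day 4 in purple) and for ROS minus no ROS (right: day 4 in light orange, day 8 in red), where open circles mark an adjusted p under 0.05. Circled are Per1, Per2, Cry1 and Cry2 at day 4 against day 0, and the wide bars of Clock follow from the day 0 pair, which was 0.65 apart.

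Between day 4 and day 8, no clock gene passed the test. In limma, 0 of 10 clock genes and 0% of 16400 genes were called after Benjamini-Hochberg adjustment, with 5772 genes at an unadjusted p under 0.05 and a smallest adjusted p of 0.103. A 2-fold difference was exceeded by 0 of 10 clock genes, against 6.16% of all genes. The largest positive difference was that of Nr1d1, at 0.74 on the log2 scale (SE 0.09, limma adjusted p = 0.105), where both samples of day 8 were above both of day 4. Dbp differed by 0.52 (limma adjusted p = 0.165), Cry1 by 0.32 (0.113) and Per1 by 0.26 (0.128), each with both day 8 values above both day 4 values. The largest negative difference was that of Clock, at -0.84 (SE 0.33, limma adjusted p = 0.226), and both day 8 values were near those of day 0. The other 5 genes lay between -0.18 and 0.17.

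ROS separates the cultures that the study calls beige from those it calls white. At day 4, the 10 clock genes with ROS were close to those without it, with log2 differences from -0.30 for Clock to 0.15 for Dbp. In limma with Benjamini-Hochberg adjustment 0 of 10 clock genes and 0% of all genes were called, with 1862 genes at an unadjusted p under 0.05 and a smallest adjusted p of 0.417. Past 2-fold were 0 of 10, against 2.98% of all genes. The median absolute difference was 0.124 for the 10 genes and 0.182 for all genes.

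At day 8 the differences with ROS were larger for several members, as they were for genes in general, and again none passed the test. The median absolute difference was 0.335 for the 10 genes and 0.346 for all genes, against 0.124 and 0.182 at day 4. In limma, 0 of 10 clock genes and 0% of all genes were called, with 5011 genes at an unadjusted p under 0.05 and a smallest adjusted p of 0.0972, and 0 of 10 clock genes against 13.8% of all genes were past 2-fold. Nr1d1, at 19.3 with and 13.5 without ROS, had the largest positive difference (log2 0.51, SE 0.13, limma adjusted p = 0.176), followed by Per2 at 0.32 (limma adjusted p = 0.190) and Nr1d2 at 0.26. Cry2, at 6.06 with and 8.31 without ROS, had the largest negative one (log2 -0.45, SE 0.12, limma adjusted p = 0.183), followed by Dbp at -0.37, Arntl at -0.36, Clock at -0.35 and Cry1 at -0.29. Per3 and Per1 differed by 0.09 and -0.04. The median over all genes was itself -0.20 in this comparison, and it moved to -0.02 when samples were scaled by the median of ratios, so the negative values are to be read relative to that shift, and the sign of Per1 flipped with scaling. The ratio of Nr1d1 to Arntl, its target, was 3.39 with ROS and 1.83 without, both in FPKM and from single samples, against 1.31 and 1.32 at day 4. Among transduced cells, also at day 8 with ROS, the ratio was 3.37 in WT A and 1.95 in WT B. It was 1.61 in S265A, 2.00 in S265D and 1.68 in S265D-H1120Y. Summed FPKM of the 5 preadipocyte markers was 131 with and 555 without ROS at day 8, most of it from Ly6a (108 and 495). The part of these markers in the clock gene differences was not tested.

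Whether ROS acted differently on the 2 days was tested as an interaction. The difference of the ROS effects, day 8 minus day 4, went from -0.51 for Dbp to 0.54 for Nr1d2 on the log2 scale, with 0.51 for Nr1d1 and 0.40 for Per2. In limma 0 of 10 clock genes and 0% of all genes were called after Benjamini-Hochberg adjustment, with 2763 genes at an unadjusted p under 0.05, and 0 of 10 against 11.2% were past 2-fold. The lowest adjusted p of a clock gene was 0.297, for Cry1. With no minimum FPKM, 2 of 10 clock genes and 2129 of all 29955 genes were called. The 2 were Cry1 with -0.42 (SE 0.0063, limma adjusted p = 0.0416) and Per1 with 0.07 (SE 0.00095, limma adjusted p = 0.0370). In this setting limma moderated the spread less. These SEs thus mostly reflect a day 0 pair that was only 0.0050 apart for Cry1 and 0.00032 for Per1.

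**Figure D3:**
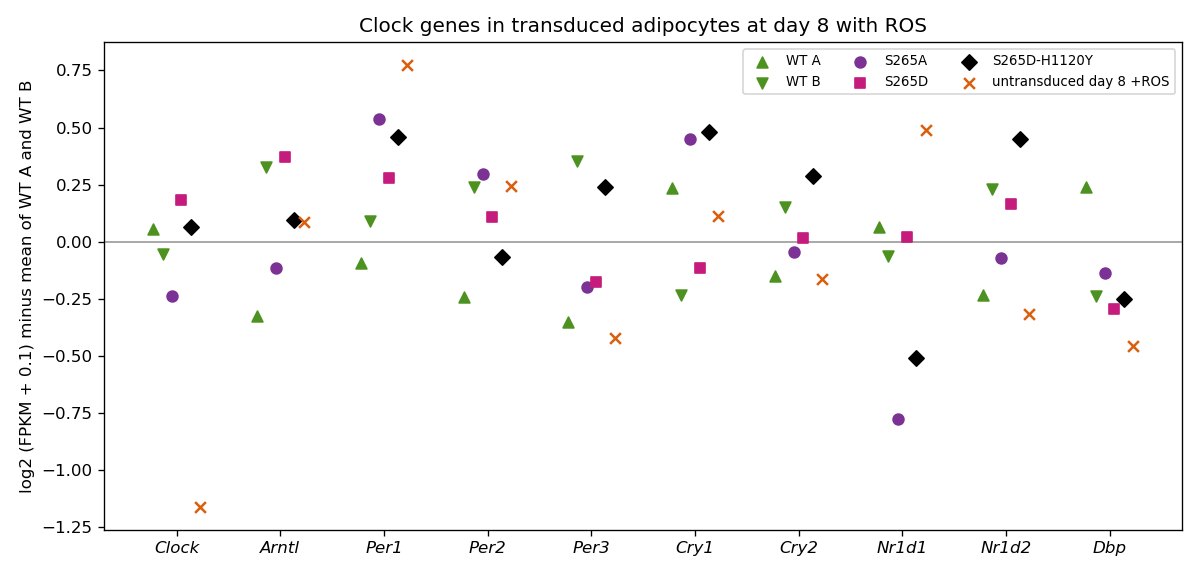
Log2(FPKM + 0.1) of the 10 clock genes (x axis) in transduced adipocytes at day 8 with ROS, minus the mean of both WT samples (y axis, 1 symbol per sample), with untransduced cells at day 8 with ROS as crosses. For Nr1d1, S265A (0.78 under the WT mean) and S265D-H1120Y lie below both WT samples, and for Clock the untransduced sample lies below all 5 transduced samples.

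In transduced adipocytes, the study asks what phosphorylation of S265 and the demethylase activity of JMJD1A change. The WT pair sets the scale for these comparisons. Per3 had an FPKM of 7.09 in WT A and 11.6 in WT B, which are 0.71 apart on the log2 scale, Arntl had 4.26 and 6.75 (0.65 apart), and Dbp had 18.3 and 13.2 (0.48 apart). Closest were Clock, with 13.4 and 12.4 (0.11 apart), and Nr1d1, with 14.3 and 13.1 (0.13 apart). WT A had the lowest Arntl and the highest Dbp of all 11 samples. No clock gene was 2-fold apart within the pair, against 13.6% of genes higher and 9.21% lower in WT B than in WT A. Summed FPKM of the preadipocyte markers was lower in WT A, at 136, than in WT B, at 552, most of it from Ly6a (116 and 496). Pdgfra and Thy1 were also lower in WT A, while Cd34 (4.75 and 5.13) and Dlk1 (0.148 and 0.174) were close. The part of these markers in the clock gene values was not tested.

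In S265A against WT, no clock gene passed the test. In limma with Benjamini-Hochberg adjustment, 0 of 10 clock genes and 0% of 16402 genes were called, with 107 genes at an unadjusted p under 0.05, and every adjusted p was 1. Past 2-fold were 0 of 10 clock genes and 5.15% of all genes. Nr1d1 had the largest difference, with FPKM of 7.97 in S265A, 14.3 in WT A and 13.1 in WT B (log2 -0.78, SE 0.39, limma adjusted p = 1). It was the lowest Nr1d1 value of the 11 samples, 0.84 under WT A and 0.71 under WT B. Per1 had 17.99 in S265A against 11.6 and 13.2 in WT (log2 0.54), and Cry1 12.5 against 10.7 and 7.74 (log2 0.45), both above both WT samples. Per1 was 0.63 above WT A and 0.45 above WT B, and Cry1 was 0.22 and 0.68 above them. Per2 had 5.29 against 3.61 and 5.08 (log2 0.30), which was 0.54 above WT A and 0.06 above WT B, and Clock, at 10.9, was below both (log2 -0.24). For Arntl, Per3, Cry2, Nr1d2 and Dbp the S265A value lay between WT A and WT B.

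S265D was compared with the same WT samples, so its values are not independent of those for S265A. In limma 0 of 10 clock genes and 0% of all genes were called after Benjamini-Hochberg adjustment, with 99 genes at an unadjusted p under 0.05 and a smallest adjusted p of 1, and 0 of 10 against 4.99% were past 2-fold. The largest difference was that of Arntl, with FPKM of 6.96 in S265D against 4.26 and 6.75 in WT (log2 0.37), where WT B was nearly as high. Per1, at 15.02, was above both WT samples (log2 0.28), and Dbp, at 12.6, was below both (log2 -0.29). Nr1d1, at 13.9, lay between the WT samples. The other 6 genes differed by at most 0.18 in size. Among them Clock, at 14.6 against 13.4 and 12.4, was above both WT samples and had its highest value of the 11 samples (log2 0.18).

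S265D-H1120Y was compared with S265D, with 1 sample each and the spread taken from the WT pair. In limma 0 of 10 clock genes and 0% of all genes were called after Benjamini-Hochberg adjustment, with 187 genes at an unadjusted p under 0.05 and a smallest adjusted p of 1, and 0 of 10 against 9.75% were past 2-fold. Cry1 had an FPKM of 12.8 in S265D-H1120Y and 8.43 in S265D (log2 0.59), and Nr1d1 had 9.63 and 13.9 (log2 -0.53). Per3, at 10.7 and 8.03, differed by 0.42, which is less than the gap within the WT pair. Nr1d2, with 10.5 and 8.58, had its highest value of the 11 samples in S265D-H1120Y (log2 0.29). The ratio of Nr1d1 to Nr1d2, both in FPKM, was 0.918 in S265D-H1120Y and 1.10 in S265A, and 1.46 to 3.16 in the other 9 samples.

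The 5 transduced samples were also set against the single untransduced sample at day 8 with ROS. This is given as a description because transduction, selection and experiment cannot be told apart. With a single untransduced sample, a split without overlap is common among all genes, as the shares below show. Clock had an FPKM of 5.70 in untransduced cells and 10.9 to 14.6 in the 5 transduced samples, and was thus higher in each of them. Per1 went the other way, with 21.2 against 11.6 to 17.99, as did Nr1d1, with 19.3 against 7.97 to 14.3. In total 5 of 10 clock genes (Clock, Per3, Cry2, Nr1d2 and Dbp) were higher in all 5 transduced samples, against 28.6% of all genes, and 2 of 10 (Per1 and Nr1d1) were lower in all 5, against 22.8%. For Cry2 the margin was small, with 6.06 in untransduced cells and 6.10 in WT A. The summed FPKM of the glucocorticoid targets in transduced cells, given above, was below that of the untransduced samples of days 4 and 8. Fkbp5, Tsc22d3 and Sgk1 were lower in each transduced sample than at days 4 and 8. Klf9 was higher in each, at 35.0 to 45.6 against 17.7 to 27.9, and the other targets overlapped. The part of these targets in the clock gene values was not tested.

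When the 9 groups were ordered by level, most neighbours were closer than the wider of the gaps within the day 0 and WT pairs. For Nr1d1, 4 of the 8 steps in the order exceeded that gap, from day 8 with ROS at the top to S265A at the bottom. Its gap of 0.153 on the log2 scale was the smallest of the 10 genes. Its largest step, 0.471, was below those of Cry1 (0.837), Per1 (0.74), Dbp (0.71), Cry2 (0.567) and Clock (0.519). Such counts were not made for all genes. For Per1, 2 of 8 steps exceeded its gap of 0.182, including its largest step, between WT and day 0, the lowest group. For Cry1, Cry2 and Dbp it was 1 of 8, again the step to day 0 as the lowest group for each. For Clock, Arntl, Per2, Per3 and Nr1d2 no neighbouring groups were farther apart than the gap within a pair.

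Members that the loop ties together were compared across the 11 samples as a description, since the points share the split between day 0 and differentiated cells. The highest Pearson correlation of log2(FPKM + 0.1) over 11 samples was that of Cry1 with Dbp, at 0.876, with 0.503 over the 9 samples without day 0. Per1 with Cry2 had 0.840 over 11 samples and 0.255 over 9. Per3 with Nr1d2 had 0.714 over 11 samples and the highest value over 9, at 0.871. The lowest over 11 samples was Arntl with Dbp, at -0.381, with -0.675 over 9, and the lowest over 9 was Clock with Per1, at -0.712, with 0.303 over 11. The Dbp to Arntl ratio in FPKM was 0.736 and 0.894 at day 0, 1.151 and 1.28 at day 4 and 1.98 in both samples of day 8, and in transduced cells it ran from 1.82 in S265D to 4.30 in WT A. Among 12416 genes with a mean FPKM of at least 1, the genes with a pattern over the 11 samples most like that of Dbp were Lamb3 (r = 0.987), Ifi27l2a (0.978), Gpt (0.971), Tlcd1 (0.971) and Rtn4rl1 (0.970). Those most like Arntl were Ddx58 (0.962), Mbd4 (0.924), bmal1b (0.914), Eif2ak2 (0.901) and AK204442 (0.886), of which bmal1b is a transcript of the Arntl locus itself. No other clock gene was among either set of 5.

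Other genes of the clock were covered by a list of 19 that encode paralogs, nuclear receptors, PAR bZIP factors, further repressors, kinases and F-box proteins, and all 19 were tested. Between day 0 and day 4, 6 rose and 4 fell in limma with Benjamini-Hochberg adjustment, with a median log2 difference of -0.09. These 10 of 19 stand beside 22% of all genes that rose and 21.7% that fell. Rora, whose product activates Arntl, rose from 0.215 and 0.313 to 2.49 and 2.31 (log2 2.79, limma adjusted p = 0.0252). Npas2, a paralog of Clock, rose by 2.91 on the log2 scale (limma adjusted p = 0.0242), from FPKM of 0.158 and 0.0976 to 1.48 and 1.72.

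Among the D-box factors, Hlf rose by 2.36 and Tef by 0.77, and Nfil3, which represses at D-boxes, rose by 1.27 on the log2 scale at day 4 (limma adjusted p = 0.0207, 0.0350 and 0.0301). Usp2, a deubiquitinase with rhythmic expression in many tissues, rose by 2.64 (limma adjusted p = 0.0175). The genes that fell were Bhlhe40 and Bhlhe41, which encode the E-box repressors DEC1 and DEC2, with log2 differences of -1.95 and -0.99, Arntl2 with -1.34 and Csnk1e, a kinase of PER proteins, with -0.85 (limma adjusted p = 0.0173, 0.0387, 0.0462 and 0.0275). Bhlhe40 had an FPKM of 37.5 and 38.3 at day 0 and 10.4 and 9.13 at day 4. Both day 4 values were below both day 0 values for each of these 4 genes.

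**Figure D4:**
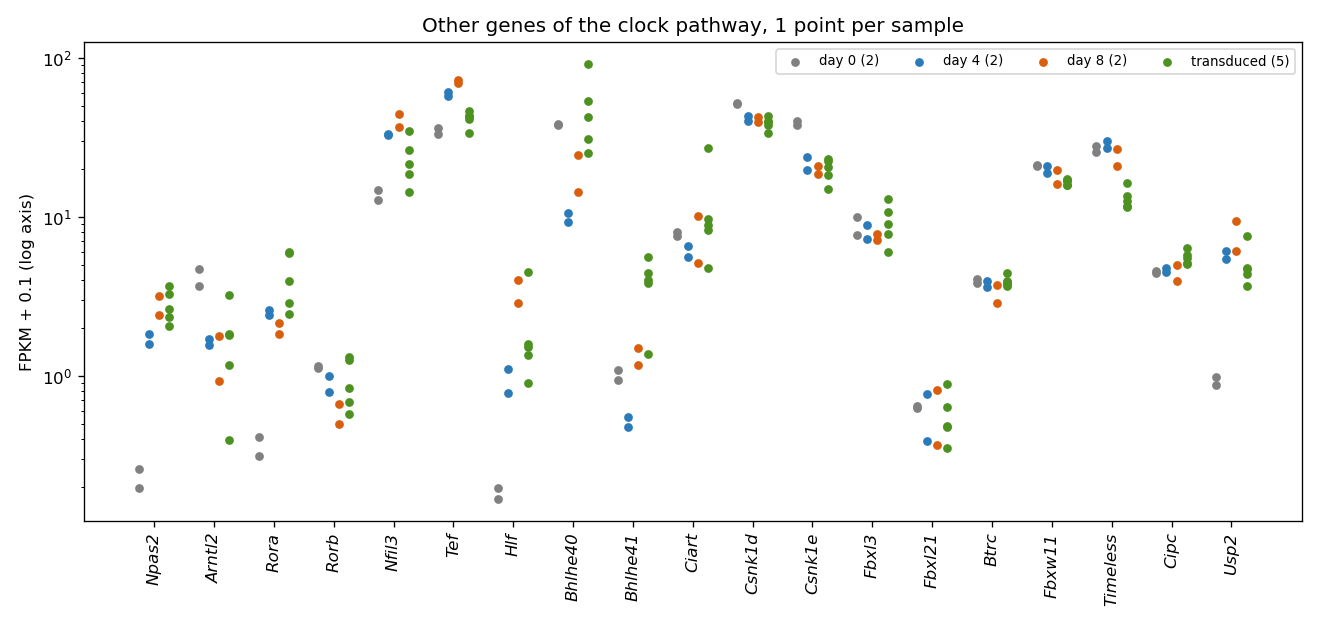
FPKM + 0.1 (log axis) of 19 other clock genes (x axis), with 1 point per sample in grey for day 0, blue for day 4, orange for day 8 and green for transduced cells. Npas2, Rora, Hlf and Usp2 are lowest in the samples of day 0, and Bhlhe40 and Ciart have their highest points in S265D-H1120Y, at 91.1 and 26.8.

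In the later comparisons, 0 of the 19 genes were called by limma, as were 0% of all genes, and those past 2-fold are named here. At day 8 against day 4, 2 of 19 were past 2-fold, Hlf with a log2 difference of 1.87 and Bhlhe41 with 1.38, against 6.16% of all genes. At day 8 with ROS against without it was 1 of 19, Fbxl21 (log2 -1.13, limma adjusted p = 0.0972), against 13.8% of all genes. In S265D-H1120Y against S265D it was 3 of 19, Ciart upward and Rora (log2 -1.07) and Rorb (log2 -1.14) downward, against 9.75%, and in S265A against WT it was 1 of 19, Bhlhe41, against 5.15%. Ciart, an E-box repressor listed under the symbol Gm129, had an FPKM of 26.8 in S265D-H1120Y, against 4.65 to 10.0 in the other 10 samples, and 9.56 in S265D. Its log2 difference from S265D was 1.48 (limma adjusted p = 1). Bhlhe40 was likewise highest in S265D-H1120Y, with 91.1 against 53.6 in S265D. Bhlhe41 was at 1.28 in S265A and at 3.72 and 4.32 in WT (log2 -1.57, limma adjusted p = 1).

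Several clock genes have more than 1 transcript row in the files, and the rows share reads. The number of sense rows was 7 for Per3, 6 for Arntl, 5 for Clock, 4 for Per1, 3 for Per2, 2 for Cry2 and Nr1d2 and 1 for Cry1, Nr1d1 and Dbp. Mean FPKM over the 11 samples ran from 7.27 to 13.6 among the rows of Clock, where the representative had 10.3, and from 6.27 to 7.22 among those of Arntl, where the representative was the lowest. For Per3 the rows ran from 4.50 to 7.93. With the highest row in place of the representative, the difference of Arntl between day 4 and day 0 was -0.00050 in place of 0.22 on the log2 scale, and that of Clock was 0.61 in place of 0.99. These highest rows are short, with 826 bases of exons for Arntl and 873 for Clock, against 2904 and 7478 in the representatives. In every other row of both genes, both day 4 values were above both day 0 values.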

How the data were processed

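Total RNA of 11 samples was sequenced as TruSeq libraries. The authors aligned reads with BWA to UCSC transcripts and the mm9 genome, realigned them locally and deposited strand-specific FPKM for 55419 transcripts on each strand. The deposited files also hold the log10 and the log2 of the FPKM and the signal (coverage) of each transcript as mapped bases. Tool versions are not given in the sources used here. No read counts were used, and a count test was thus not applied.

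Each symbol was represented by the transcript that the authors flagged. Starts in the files were counted from 0 and are printed counted from 1. Groups were taken from the labels. Differences were tested with limma 3.58.1 (R 4.3.3) on log2(FPKM + 0.1), which understates changes of genes with low FPKM, for genes with FPKM of at least 0.1 in a sample of the fit, separately in the 6 time course and 5 transduced samples. Benjamini-Hochberg adjustment ran over all genes, with a threshold of 0.05, and 2-fold means an absolute difference of at least 1 on that scale. On data simulated for day 4 against day 0 all 200 of 200 altered genes were called, beside 12 false calls in 16400 tests. On data simulated for S265A against WT 45 of 100 genes altered by 2 and 100 of 100 altered by 4 on the log2 scale were called, beside 8 false calls in 16402 tests. Both simulations gave every gene the same spread, with an SD of 0.138 and 0.524, and shifts of 2 or 4. These shifts exceed every tested clock gene difference. The simulations thus do not show how smaller differences, or genes of unequal spread, would be called.

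The members, the lists of other clock genes, markers and signal targets, and the rules for named genes were chosen with earlier results of these data known. 1 gene of the list of other clock genes is not reported here. All members and the remaining listed genes could be named, and the 5 genes most like Dbp and Arntl were taken by Pearson correlation. Tables and figures were made with Python 3.11.15, numpy 2.4.6, pandas 2.3.3 and matplotlib 3.10.9. Alternatives changed the pseudocount, the minimum FPKM, the transcript, the scaling, the fit and the samples.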

Additional observations from a re-analysis of the deposited data

Results flagged for a closer look

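Antisense rows were not used in any comparison. Each of the 10 clock genes had a sample with antisense signal above that of both day 0 samples, which served as the control level. This is easily met, since the highest of all other samples was set against the day 0 pair only. The share over all genes was not computed. In 3 of the 10 genes the highest sample had an antisense FPKM of at least 0.1. At Nr1d1 the antisense FPKM reached 4.57 at day 4 without ROS, against 2.18 and 2.46 at day 0, and was at least 1.62 in every sample. The antisense strand of Nr1d1 overlaps exons of Thra, and the part of Thra reads in this row was not tested. At Dbp it reached 0.304 in WT A, against 0.114 and 0.127 at day 0, and at Per1 it reached 0.104 in S265A, against 0.0231 and 0.0230. The antisense FPKM of the other 7 genes was at most 0.0433 in any sample.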

How the results depend on the processing

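The day 0 samples carry a ROS label, and a fit with that label as a replicate block, chosen after seeing the data, called 4 clock genes at day 4 against day 0 and 0 at day 8 against day 4. It called Dbp (limma adjusted p = 0.0437) in place of Per2 (0.0618), and 5523 of all genes at day 4 against day 0. The label is no replicate number, and no source says that it marks a shared culture. In the transduced samples no paired fit could be made, because the letters of WT A and WT B are shared by no other group. In day 4 against day 0, 4 clock genes were called as reported, 7 in an additive fit of day and ROS, 1 in a fit of all 11 samples, and 0 to 0 when either day 0 sample was left out of that fit, where 0 of all genes were called as well. Over 15 settings Per1 was called in 13, Cry1 in 12, Per2 and Cry2 in 10, Per3 in 4, Dbp in 3, and Clock and Arntl in 1. The highest limma adjusted p was 0.455 for Per1, 0.505 for Cry1, 0.504 for Cry2 and 0.608 for Per2. All genes called numbered 7169 of 16400 as reported and 7370 of 16400 in the additive fit. They numbered 1454 of 17075 in the fit of all 11 samples and 3249 of 29955 with no minimum FPKM. Past 2-fold were 2 clock genes in place of 1 with a pseudocount of 0.01, with upper-quartile scaling and with samples without ROS only, and 1 to 2 when a day 0 sample was left out. With no minimum FPKM, clock genes called numbered 2 at day 8 against day 4, 1 for ROS at day 4, 2 for ROS at day 8 and 2 for the interaction. These were Per1 and, where 2, Cry1, against 0 in each as reported. Of all 29955 genes, 2420, 1434, 2042 and 2129 were called in these comparisons. The additive fit called 140 genes at day 8 against day 4, and a minimum FPKM of 1 called 895 genes for ROS at day 8. The cause of these changes was not tested.

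The sign of 35 values of single genes, none of them called as reported, changed under an alternative. For ROS at day 4 the values on the log2 scale were 0.053 (median of ratios) and 0.0052 (upper quartile) for Arntl, 0.023 for Clock and -0.061 for Cry2 (highest transcript), 0.060 and 0.012 for Nr1d1 (both scalings), and, in the additive fit, -0.075 for Cry1, -0.22 for Cry2, -0.11 for Dbp, 0.26 for Nr1d1 and 0.12 for Per2. For ROS at day 8 they were 0.15 and 0.099 for Per1 (both scalings), and -0.012 for Nr1d2 and -0.060 for Per3 (additive fit). The interaction of Clock was 0.078 and 0.076 (both scalings). With the highest transcript Arntl was -0.00050 at day 4 against day 0 and 0.12 in S265A against WT. At day 8 against day 4 they were 0.0010 for Arntl, 0.18 for Cry2 and -0.10 for Nr1d2 without ROS, and 0.15 for Per2 and 0.061 for Per3 with ROS. For S265A they were 0.21 for Arntl, 0.11 for Cry2, 0.16 for Nr1d2 and 0.16 for Per3 without WT B, and 0.10 for Dbp without WT A. For S265D they were 0.12 for Cry1, -0.13 for Cry2, -0.067 for Nr1d2 and -0.13 for Per2 without WT A, and -0.044 for Nr1d1 and 0.18 for Per3 without WT B.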
